A study of Homo sapiens with 16 samples.

Results

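Metallothioneins and the genes of the cellular zinc response were followed across every group of an RNA-seq study of LN229, an established human glioblastoma line. The 8 genes were chosen by symbol: 6 metallothioneins (*MT1E*, *MT1F*, *MT1G*, *MT1M*, *MT1X* and *MT2A*), the zinc-sensing transcription factor *MTF1* and the zinc exporter *SLC30A1*. Of 14108 genes listed in either of the study's 2 experiments, these 8 were sought, and 5 had a value in both experiments: *MT1E*, *MT1X*, *MT2A*, *MTF1* and *SLC30A1*. *MT1F*, *MT1G* and *MT1M* had no value in either experiment and were not analysed here.

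In experiment 1, LN229 cells without added compound were kept in regular culture (medium with 10% serum) or in ischemic culture (2 mM glucose, 0.1 mM glutamine, 1% serum and about 1% oxygen). In experiment 2, both cultures received the vehicle DMSO, VX745 (which inhibits the stress kinase p38α) or MK25 (which inhibits MK2, a kinase that p38α activates), which makes 6 groups. Each of the 8 groups held 2 libraries, 16 in all, and every group was the same unmodified line. The study's methods list VX745 at 2 µM and MK25 at 10 µM without naming the assay, and the time in ischemic culture was not given for these libraries in the sources used here. The methods speak of independent experiments for cell culture work in general, but the labels do not say whether the libraries of a group came from separate cultures, so p-values measure only the spread between libraries, which may be technical. The line is 1 pool of tumor-derived cells without the vessels, neurons or immune cells of a tumor, and in bulk RNA a larger share of expressing cells cannot be told apart from more RNA per cell.

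Metallothioneins are small, cysteine-rich proteins that bind zinc and copper and buffer the free metal of the cytosol. When free zinc rises, MTF1 binds metal response elements (MREs) in the promoters of metallothionein genes and of *SLC30A1*, whose product (ZnT1) carries zinc out of the cell across the plasma membrane. Metallothionein genes are also known to respond to low oxygen, glucocorticoids and oxidative stress.

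The metallothioneins lie together on chromosome 16, and the other members lie on chromosome 1 (RefSeq, GRCh38.p14). *MT2A* and *MT1X* are on the plus strand, and *MTF1* and *SLC30A1* are on the minus strand. *MT2A* (gene ID 4502) spans chr16:56608584-56609497, *MT1E* (4493) spans chr16:56625781-56627112 and *MT1X* (4501) spans chr16:56682470-56684196. *MTF1* (4520) spans chr1:37809574-37859592 and *SLC30A1* (7779) spans chr1:211571568-211579161. Promoter sequence was at hand for *MT2A*, *MT1X*, *SLC30A1* and *MTF1*. The 250 bases before the annotated start of 3 of these genes are printed because each window holds a match to the core letters of the MRE. Capitals mark each match to the MRE core, searched on both strands as TGCACNC or TGCGCNC (N stands for any base). The windows are chr16:56608334-56608583 for *MT2A*, chr16:56682220-56682469 for *MT1X* and chr1:211579162-211579411 for *SLC30A1*, each written 5′ to 3′ on the strand of its gene.
MT2A: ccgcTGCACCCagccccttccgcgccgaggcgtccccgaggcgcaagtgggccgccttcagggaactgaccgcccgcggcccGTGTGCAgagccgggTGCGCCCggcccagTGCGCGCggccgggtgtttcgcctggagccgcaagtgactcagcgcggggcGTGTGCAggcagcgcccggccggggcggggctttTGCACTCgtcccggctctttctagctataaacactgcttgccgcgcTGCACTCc
MT1X: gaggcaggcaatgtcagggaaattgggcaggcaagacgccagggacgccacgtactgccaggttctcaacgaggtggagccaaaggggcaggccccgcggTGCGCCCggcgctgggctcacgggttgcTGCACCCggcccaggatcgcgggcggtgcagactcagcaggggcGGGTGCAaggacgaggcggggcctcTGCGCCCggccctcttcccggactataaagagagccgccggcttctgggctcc
SLC30A1: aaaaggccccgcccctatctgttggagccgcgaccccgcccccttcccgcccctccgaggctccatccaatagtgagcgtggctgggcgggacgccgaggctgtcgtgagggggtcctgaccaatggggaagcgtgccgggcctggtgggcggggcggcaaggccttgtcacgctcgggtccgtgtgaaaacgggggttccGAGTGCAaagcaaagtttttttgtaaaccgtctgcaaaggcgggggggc

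The window of *MT2A* held 7 MRE core matches, that of *MT1X* held 4, that of *SLC30A1* held 1 and that of *MTF1* held 0. Of 35116 RefSeq promoters with a window of this length, 24.83% held at least 1 match, 0.37% held at least 4 and 0.031% held at least 7. The match nearest the start lay 8 to 2 bases before it in *MT2A*, 53 to 47 bases before it in *MT1X* and 49 to 43 bases before it in *SLC30A1*. The hypoxia core (ACGTG or GCGTG) matched 1 time in *MT2A*, 1 time in *MT1X*, 3 times in *SLC30A1* and 2 times in *MTF1*. Of all promoters, 43.2% held at least 1 match, 19.35% at least 2 and 7.76% at least 3. The antioxidant core (TGACNNNGC) matched 1 time each in *MT2A*, *MT1X* and *SLC30A1*, against 10.9% of all promoters with a match, and the AP-1 core (TGANTCA) matched 1 time, in *MT2A*, against 6.57%. In *MT2A* the AP-1 match overlapped the antioxidant match, and the hypoxia match overlapped an MRE match, and in *SLC30A1* the antioxidant match overlapped a hypoxia match. A match is a string of letters and was not tested for binding.

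**Figure D1:**
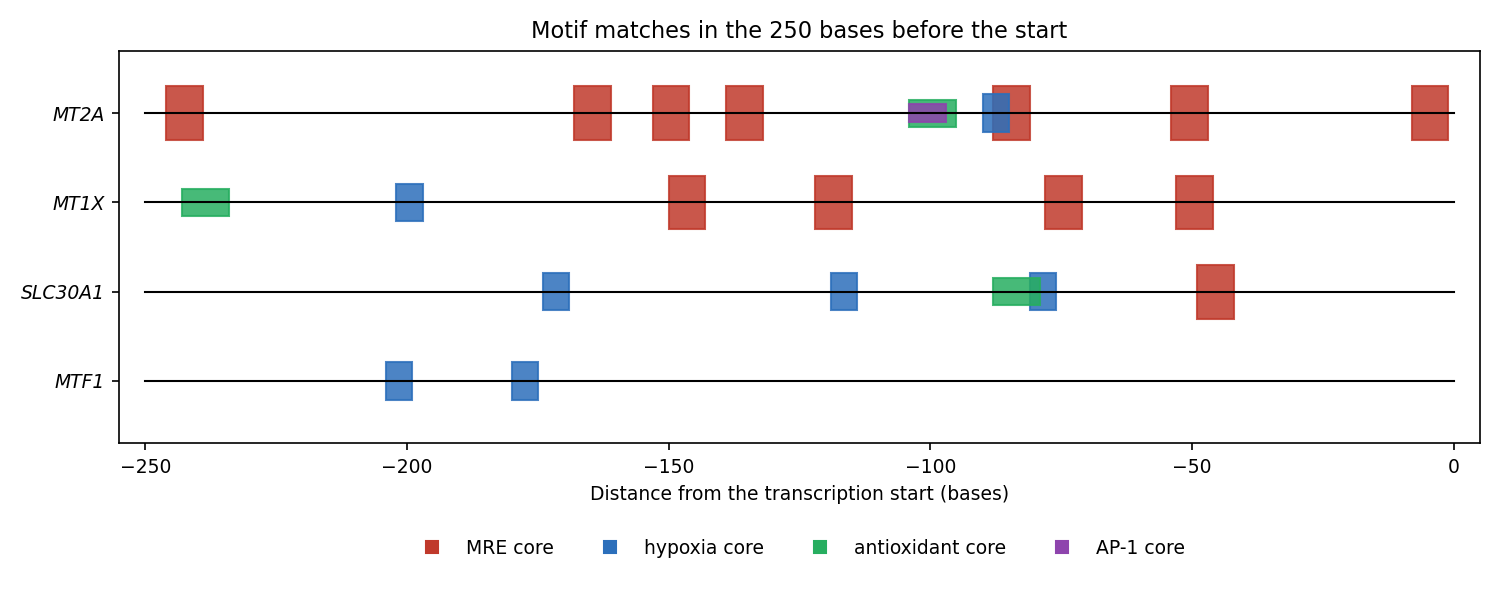
Positions of motif core matches in the 250 bases before the annotated start of *MT2A*, *MT1X*, *SLC30A1* and *MTF1*. The horizontal axis gives bases relative to the start and each mark is 1 match; *MT2A* carries 7 MRE core matches and *MTF1* carries 0.

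The deposited values are log2 CPM (normalized counts scaled to a common library size), and between 20122017 and 37562668 reads per library lay on the listed genes. The lowest number of reads for any member in any library was 22, for *MT1E* in regular culture, which is above the 3 reads taken as the limit of detection. Because the experiments were normalized separately, levels were compared only within an experiment. The labels were checked with 4 genes known to be induced by low oxygen (*CA9*, *VEGFA*, *ADM* and *NDRG1*), which were higher in ischemic culture in both experiments by 3.91 to 9.45 on the log2 scale. Of 8 marker genes of glioma cells 8 had a value, and among markers of other cell types *CD68* (macrophages) and *SYT1* (neurons) had one, while *PTPRC*, *AIF1*, *PECAM1*, *CDH5*, *RBFOX3* and *MBP* had none. *SYT1* was higher in ischemic culture by 2.58 and 2.02 in experiments 1 and 2, and *CD68* differed by 0.77 and 0.94 and was not called. By their labels all libraries were of the LN229 line alone, and the source of the *SYT1* and *CD68* RNA was not tested.

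The first comparison asked which of the zinc response genes differ between ischemic and regular culture. All 3 measured metallothioneins and *SLC30A1* were higher in ischemic culture in both experiments, whereas *MTF1*, which regulates them, differed by 0.20 and −0.24 on the log2 scale. A gene was called when its adjusted p (limma, Benjamini-Hochberg over all genes of the table) was under 0.05 and its fold change was at least 2. By this rule 3 of the 5 measured members rose in experiment 1, where 11.3% of all 13559 genes rose and 20.4% were called in either direction. In the DMSO groups of experiment 2, 4 of the 5 rose, against 9.03% of 14024 genes that rose and 17.1% called in either direction. The median difference of the 5 members was 1.53 in experiment 1 and 1.65 in experiment 2, and the median of all genes was −0.01 in each.

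*MT1X*, a widely expressed metallothionein, had log2 CPM of 4.29 and 4.57 in the ischemic libraries of experiment 1 and of 2.03 and 2.52 in the regular libraries. In the DMSO groups of experiment 2 it had 5.20 and 5.32 in ischemic culture and 2.67 and 2.80 in regular culture. The ischemic libraries lay above the regular ones without overlap in both experiments. *MT1X* rose 4.46-fold in experiment 1 (log2 difference 2.16, SE 0.16, adjusted p = 1.74e-07, limma) and 5.76-fold in experiment 2 (2.53, SE 0.09, adjusted p = 1.15e-13), which was the largest rise among the members in each experiment.

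*MT1E*, a neighboring gene of the same class, had the lowest level and the fewest reads. It had log2 CPM of 1.76 and 2.29 in ischemic culture and −0.04 and 0.01 in regular culture in experiment 1, from 91 to 102 reads and from 22 to 26 reads per library. In experiment 2 with DMSO it had 3.60 and 3.62 in ischemic culture and 1.61 and 1.20 in regular culture. Both ischemic libraries were above both regular libraries each time. *MT1E* rose 4.11-fold in experiment 1 (2.04, SE 0.25, adjusted p = 1.15e-05, limma) and 4.60-fold in experiment 2 (2.20, SE 0.18, adjusted p = 6.01e-09).

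*MT2A*, the main metallothionein of many human cells, had log2 CPM of 8.35 and 8.56 in ischemic culture and 7.61 and 7.39 in regular culture in experiment 1. In experiment 2 with DMSO it had 9.46 and 9.47 in ischemic culture and 8.09 and 7.94 in regular culture. It was the most abundant member in every group and had the smallest relative difference of the 3 metallothioneins. The difference was 1.94-fold in experiment 1 (0.96, SE 0.09, adjusted p = 1.00e-06, limma), just under the fold threshold, and *MT2A* rose 2.73-fold in experiment 2 (1.45, SE 0.09, adjusted p = 1.81e-10). Without ischemic replicate 1 or without regular replicate 1, the difference in experiment 1 was 1.06 and was called.

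*SLC30A1*, the zinc exporter, had log2 CPM of 5.70 and 5.62 in ischemic culture and 4.07 and 4.18 in regular culture in experiment 1. With DMSO in experiment 2 it had 5.76 and 5.93 in ischemic culture and 4.10 and 4.29 in regular culture. The groups did not overlap, and *SLC30A1* rose 2.90-fold in experiment 1 (1.53, SE 0.09, adjusted p = 1.51e-08, limma) and 3.14-fold in experiment 2 (1.65, SE 0.09, adjusted p = 1.97e-11).

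*MTF1*, the transcription factor that senses zinc, had log2 CPM of 5.75 and 5.77 in ischemic culture and 5.48 and 5.64 in regular culture in experiment 1. With DMSO in experiment 2 the order was the opposite, with 5.36 and 5.46 in ischemic culture and 5.61 and 5.69 in regular culture. The differences were 0.20 (SE 0.08, 95% interval 0.02 to 0.37, adjusted p = 0.0472, limma) and −0.24 (SE 0.07, 95% interval −0.39 to −0.09, adjusted p = 0.00556), and neither reached a fold change of 2. In experiment 1 the difference was 0.11 without regular replicate 1 (adjusted p = 0.333, limma) and 0.28 without regular replicate 2 (adjusted p = 0.0336). The difference between the experiments was not tested.

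**Figure D2:**
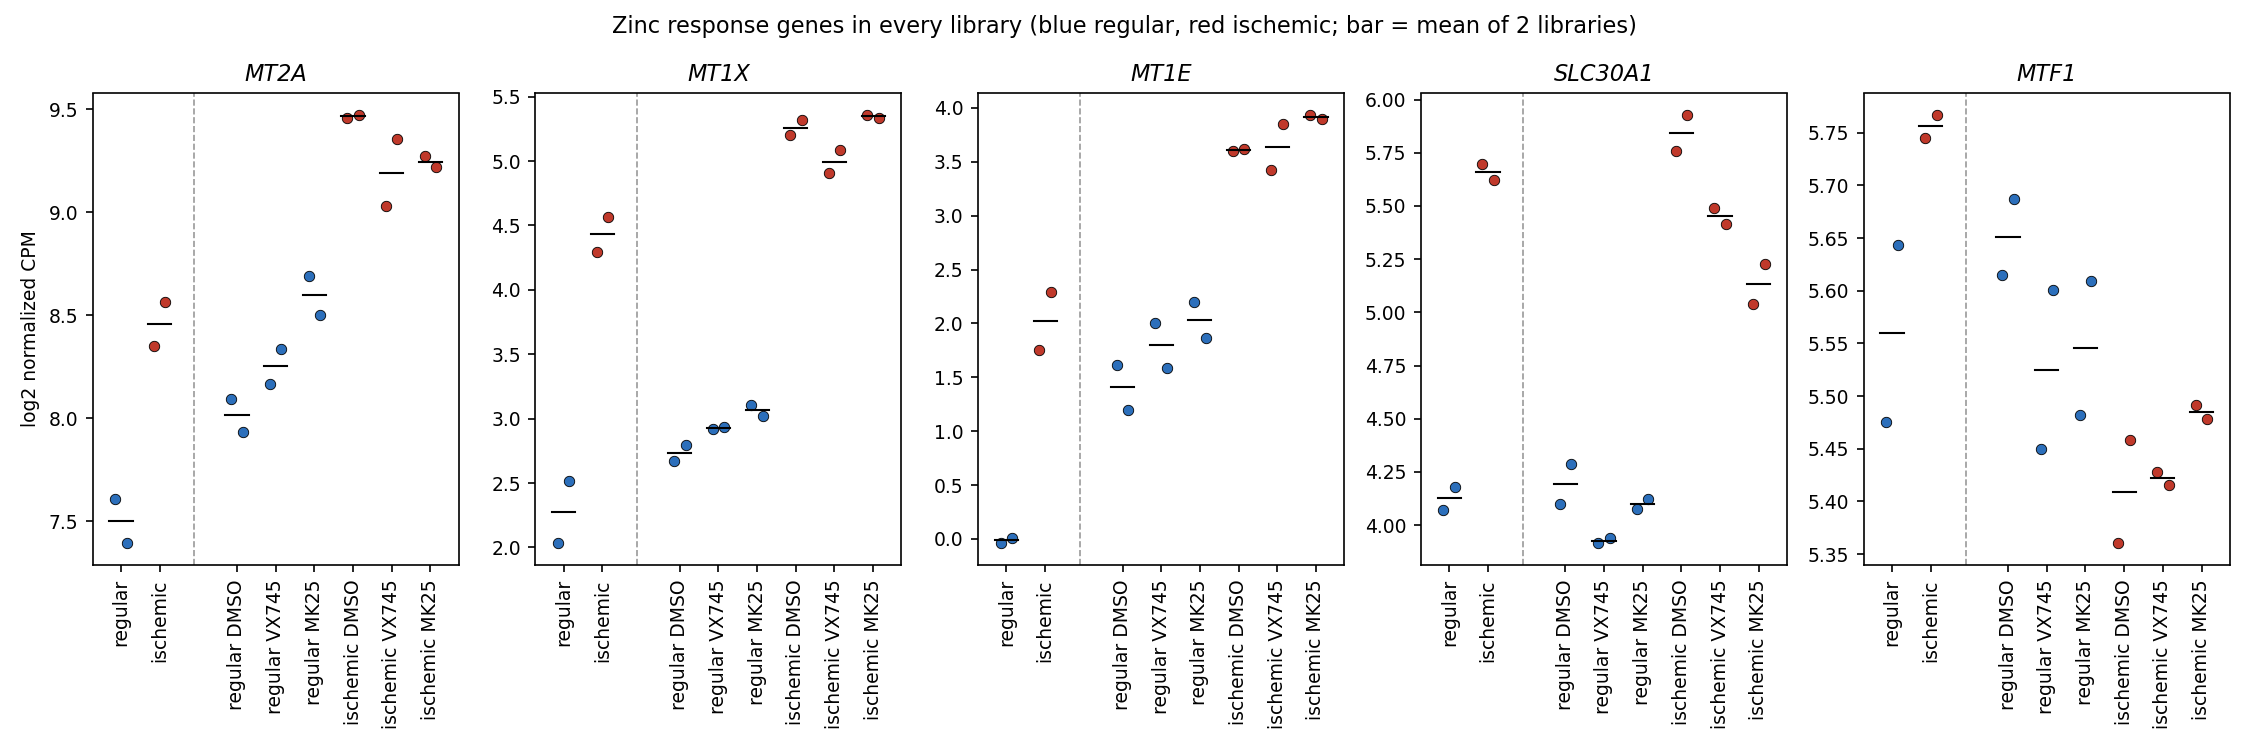
Log2 CPM of the 5 measured members in each library, by group and experiment; points are libraries and bars are group means. The 6 ischemic libraries of experiment 2 lie above the 6 regular ones for *MT1E*, *MT1X*, *MT2A* and *SLC30A1*. For *MTF1* the cultures overlap over the libraries of experiment 2 and do not overlap in experiment 1.

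The separation held with either inhibitor present. Over all 12 libraries of experiment 2, *MT1E* spanned 3.42 to 3.93 in the 6 ischemic libraries and 1.20 to 2.20 in the 6 regular ones, and *MT1X* spanned 4.90 to 5.36 and 2.67 to 3.11. *MT2A* spanned 9.03 to 9.47 and 7.94 to 8.69, and *SLC30A1* spanned 5.04 to 5.93 and 3.92 to 4.29. None of these 4 genes overlapped between cultures, and the share of all genes that did not overlap was not counted. *MTF1* overlapped, with 5.36 to 5.49 in ischemic and 5.45 to 5.69 in regular culture. The order of the group means differed between genes: in ischemic culture *MT1E* and *MT1X* were highest with MK25, while *MT2A* and *SLC30A1* were highest with DMSO. For *MT1E* in regular culture neighboring groups in the order overlapped, whereas for *SLC30A1* in ischemic culture the DMSO, VX745 and MK25 libraries stood apart from each other, in that descending order.

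Levels of different genes can be compared per length of transcript, taken as the MANE transcript of GENCODE (404 bases for *MT1X*, 401 for *MT2A*, 746 for *MT1E*, 5893 for *SLC30A1* and 7937 for *MTF1*). In regular DMSO culture *MT2A* had 645 CPM per kilobase, *MT1X* had 16.5, *MTF1* had 6.33, *MT1E* had 3.55 and *SLC30A1* had 3.10. In ischemic DMSO culture *MT2A* had 1763, *MT1X* had 94.9, *MT1E* had 16.3, *SLC30A1* had 9.74 and *MTF1* had 5.36. *MT2A* thus led in both cultures on this scale, and *MTF1* stood above *MT1E* and *SLC30A1* with DMSO in regular culture and below both with DMSO in ischemic culture. In experiment 1 *MTF1* stood above *MT1E* in both cultures, with 5.94 against 1.33 CPM per kilobase in regular and 6.81 against 5.46 in ischemic culture. Metallothionein genes are close copies of each other, and the counting of shared reads was not given in the sources used here. Of the 50-base stretches in the transcript, 10.3% of those of *MT1E* and 11.1% of those of *MT2A* also occur in the transcript of another gene. For *MT1X* this was 51.0%, or 18.0% without a long noncoding RNA on the same strand that overlaps its exons. For *MTF1* it was 0.9% and for *SLC30A1* 0%, so the levels of the metallothioneins, which are short and share sequence, are less certain.

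The inhibitor comparisons asked whether the levels depend on p38α or MK2 activity, each inhibitor being set against the same 2 DMSO libraries of its culture. The comparisons of VX745 and MK25 thus share their controls, and the compounds were not compared with each other. Here a call required a fold change of at least 1.5. In ischemic culture *SLC30A1* was the only member called, and it fell with MK25. The exporter had log2 CPM of 5.76 and 5.93 with DMSO, 5.49 and 5.42 with VX745, and 5.04 and 5.23 with MK25. No group overlapped another. With MK25 *SLC30A1* fell 1.64-fold (−0.71, SE 0.09, 95% interval −0.89 to −0.53, adjusted p = 7.51e-06, limma), and it remained above the regular DMSO libraries, at 4.10 and 4.29. With VX745 the difference was −0.39 (SE 0.09, 95% interval −0.57 to −0.21, adjusted p = 0.00306, limma), under the fold threshold.

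The metallothioneins differed less with either inhibitor in ischemic culture. *MT2A* had 9.46 and 9.47 with DMSO, 9.03 and 9.35 with VX745, and 9.27 and 9.22 with MK25. All 4 treated libraries were below both DMSO libraries, but the differences of −0.27 (adjusted p = 0.0302, limma) and −0.22 (adjusted p = 0.0594) were small, and under quantile normalization they became −0.03 (adjusted p = 0.816) and 0.03 (adjusted p = 0.824). Leaving out 1 ischemic VX745 library gave −0.11 (without replicate 1, adjusted p = 0.446, limma) or −0.44 (without replicate 2, adjusted p = 0.00485). *MT1X* had 5.20 and 5.32 with DMSO, 4.90 and 5.09 with VX745 (−0.27, adjusted p = 0.0373, limma), and 5.36 and 5.34 with MK25 (0.09, adjusted p = 0.473). *MT1E* had 3.60 and 3.62 with DMSO, 3.42 and 3.85 with VX745, and 3.93 and 3.90 with MK25. Its differences were 0.03 (adjusted p = 0.915, limma) and 0.31 (adjusted p = 0.175). *MTF1* stayed between 5.36 and 5.49 in all 6 libraries. In all, 1 of 5 members was called with MK25 in ischemic culture, where 9.67% of all genes were called and 2.65% were called lower, and 0 of 5 with VX745, where 5.26% were called. Irrespective of fold change, 3 of 5 had an unadjusted p under 0.05 with VX745, against 40.2% of all genes, and limma with voom on recovered reads also called 0.

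In regular culture MK25 went with higher metallothionein levels. *MT1E* had 1.61 and 1.20 with DMSO, 2.01 and 1.58 with VX745, and 2.20 and 1.87 with MK25. Both MK25 libraries were above both DMSO libraries, while the VX745 libraries overlapped those of DMSO. *MT1E* rose 1.54-fold with MK25 (0.63, SE 0.18, adjusted p = 0.0285, limma), and it was the only member of 5 called, against 2.49% of all genes called and 1.88% called higher. That call was lost in the fit of the 2 groups alone (adjusted p = 0.131, limma), without the variance trend (0.107), with voom (0.144) and without either regular DMSO replicate 2 (0.42, adjusted p = 0.257) or regular MK25 replicate 1 (0.46, adjusted p = 0.210).

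*MT2A* had 8.09 and 7.94 with DMSO, 8.17 and 8.34 with VX745, and 8.69 and 8.50 with MK25 in regular culture. No group overlapped another, and MK25 gave 0.58 (SE 0.09, adjusted p = 0.000351, limma), a 1.498-fold difference that lay just under the threshold. It was called without regular DMSO replicate 1 (0.66), without regular MK25 replicate 2 (0.68) and under quantile normalization (0.62). *MT1X* had 2.67 and 2.80 with DMSO, 2.92 and 2.94 with VX745, and 3.11 and 3.02 with MK25, which differed from DMSO by 0.33 (adjusted p = 0.0249, limma). *SLC30A1* had 4.10 and 4.29 with DMSO, 3.92 and 3.94 with VX745, and 4.08 and 4.12 with MK25, and *MTF1* lay between 5.45 and 5.69 in all 6 libraries. With VX745 in regular culture 0 of 5 members were called, against 0.0998% of all genes. Irrespective of fold change, 4 of 5 had an unadjusted p under 0.05, against 14.8% of all genes, with differences of 0.39 for *MT1E*, 0.19 for *MT1X*, 0.24 for *MT2A* and −0.27 for *SLC30A1*, and limma with voom also called 0.

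The hypoxia genes moved with MK25 in the same regular libraries: *CA9* rose by 2.97, *NDRG1* by 1.32 and *VEGFA* by 0.92, and *ADM* differed by 0.54 and was not called. With VX745 in regular culture 0 of the 4 were called. The regular DMSO libraries themselves differed in *CA9*, with −1.77 in replicate 1 and 0.27 in replicate 2, and the part of this difference in the metallothionein result was not tested.

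**Figure D3:**
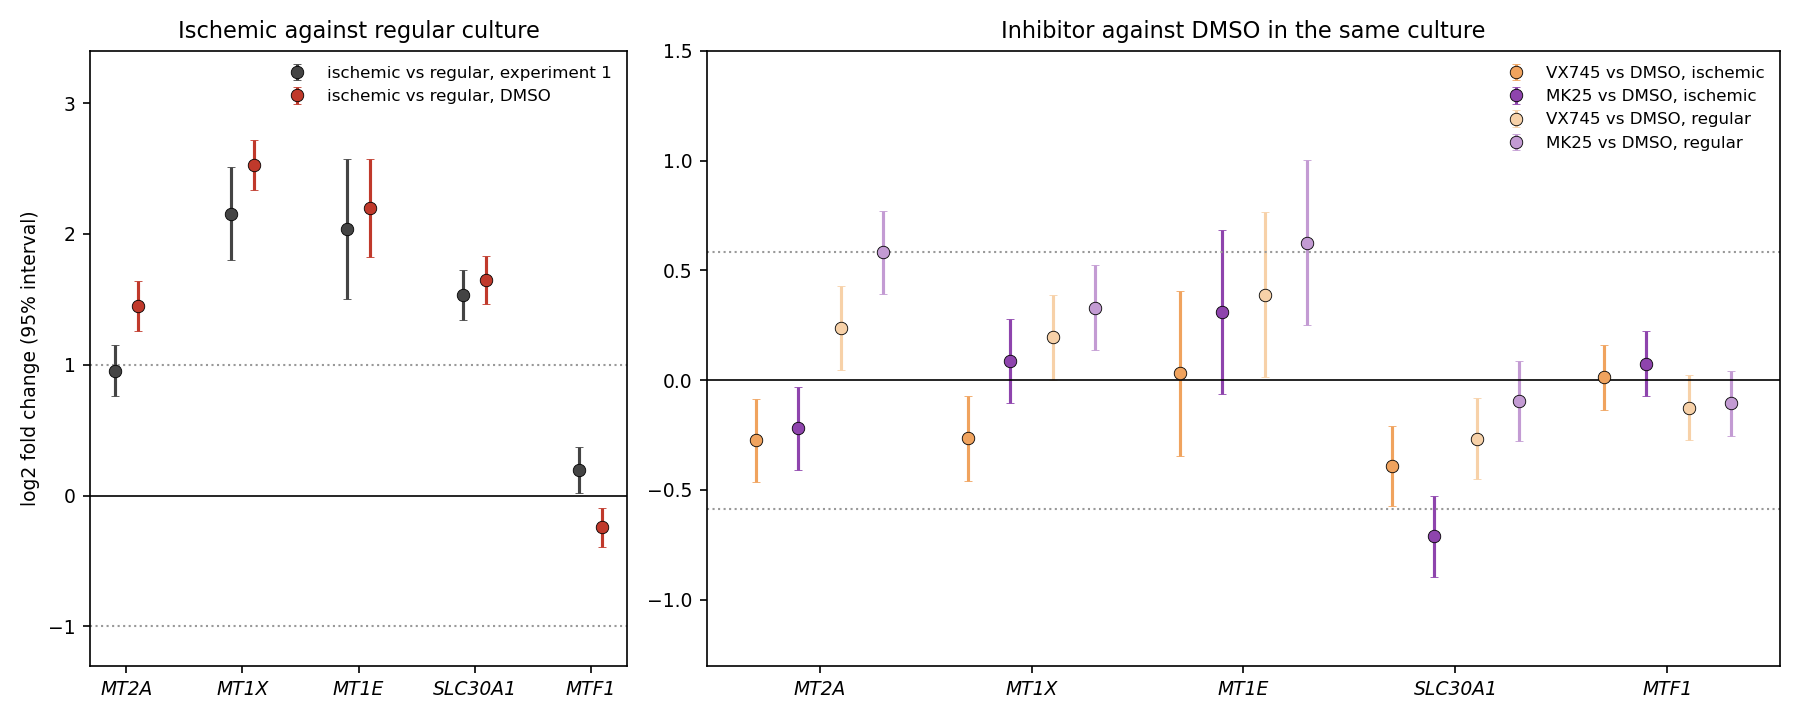
Log2 differences of the 5 measured members in each comparison, with 95% intervals from limma as bars; dotted lines mark the fold thresholds of 2 (ischemia) and 1.5 (inhibitors). *MT1E*, *MT1X*, *MT2A* and *SLC30A1* lie above 0 for ischemia in both experiments, and *SLC30A1* lies at −0.71 for MK25 in ischemic culture.

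Whether an inhibitor acted differently in the cultures was tested by the interaction, the effect in ischemic culture less that in regular culture, called at an adjusted p under 0.05. For MK25 the effect on *MT2A* was −0.22 in ischemic and 0.58 in regular culture, an interaction of −0.80 (SE 0.13, adjusted p = 0.000263, limma). For *SLC30A1* it was −0.71 and −0.09, an interaction of −0.62 (SE 0.12, adjusted p = 0.00164, limma). These 2 of 5 members were called, against 24.4% of all genes, of which 13.9% in the lower direction. For VX745 the effect on *MT2A* was −0.27 in ischemic and 0.24 in regular culture (interaction −0.51, SE 0.13, adjusted p = 0.0158, limma). *MT1X* had −0.27 and 0.19 (interaction −0.46, SE 0.13, adjusted p = 0.0287, limma). These 2 of 5 were called, against 11.8% of all genes and 6% in the lower direction. The call of *MT2A* was lost without ischemic VX745 replicate 1 (−0.35), regular DMSO replicate 2 (−0.43) or regular VX745 replicate 2 (−0.43), and under quantile normalization (−0.29). That of *MT1X* was lost without ischemic DMSO replicate 1 (−0.52) or 2 (−0.40), ischemic VX745 replicate 1 (−0.37), regular DMSO replicate 1 (−0.40) or either regular VX745 replicate (−0.47 and −0.45). Both calls were also lost without the variance trend, and that of *MT1X* with voom. *MT1E* and *MTF1* were called for neither inhibitor.

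Of the other genes of zinc and copper handling, a share near that of all genes was called with ischemia. Of 49 further genes in 5 lists, 28 had a value, and 2 rose and 4 fell with ischemia in each experiment, where 9.1% of all genes fell in experiment 1 and 8.11% in experiment 2, with a median difference of −0.31 in experiment 1 and −0.30 in experiment 2. None of 12 further metallothionein genes and pseudogenes had a value. Among 6 measured zinc exporters of 10, only *SLC30A2*, which loads zinc into vesicles, fell, by 2.21 in experiment 1 (SE 0.20, adjusted p = 9.62e-07, limma) and by 2.31 in experiment 2 (SE 0.23, adjusted p = 9.70e-08), and none rose. Among 10 measured zinc importers of 14, *SLC39A3* fell by 1.21 in experiment 1 (−0.74 in experiment 2, not called) and *SLC39A10* fell by 1.45 in experiment 2 (−0.83 in experiment 1, not called). Of 4 measured further genes reported as MTF1 targets, *SELENOW*, a selenoprotein, fell by 2.02 and 1.19, and *PGF*, a growth factor, fell by 1.73 in experiment 1 and had −0.68 in experiment 2.

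Of 8 copper-handling genes, *SLC31A1*, the copper importer, rose by 1.12 in both experiments. *ATP7A*, the copper-exporting ATPase, rose by 1.92 in experiment 1 and 1.12 in experiment 2. *SLC31A2* fell by 1.28 in experiment 2 and had −0.84 in experiment 1. *COX17*, a copper chaperone, had −0.97 in experiment 1 and was called there only with median centring (−1.01) or quantile normalization. In the 4 inhibitor comparisons 0 of the 28 genes were called, and at an unadjusted p with the same fold 0 were called in any, nor did voom call one. By the main rule 5.26% and 9.67% of all genes were called with VX745 and MK25 in ischemic culture. The shares in regular culture were 0.0998% and 2.49%. Irrespective of fold change, 12 and 18 had an unadjusted p under 0.05 with VX745 and MK25 in ischemic culture, against 40.2% and 49.6% of all genes. In regular culture there were 4 and 6, against 14.8% and 27.6%. The interaction with MK25 was called for 7 of the 28 genes, a share near the 24.4% of all genes. Of the 7, *SLC31A2* was higher (0.61, against 10.5% of all genes called higher) and 6 were lower (against 13.9%), led by *ATOX1* (−0.70), *SLC31A1* (−0.61) and *COMMD1* (−0.52). Under quantile normalization 4 of the 7 calls were lost. That with VX745 was called for 2 of the 28, against 11.8% of all genes and 6% lower: *SLC31A1* (−0.38) and *ATOX1* (−0.36), the latter not under quantile normalization (−0.33, adjusted p = 0.0669, limma).

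**Figure D4:**
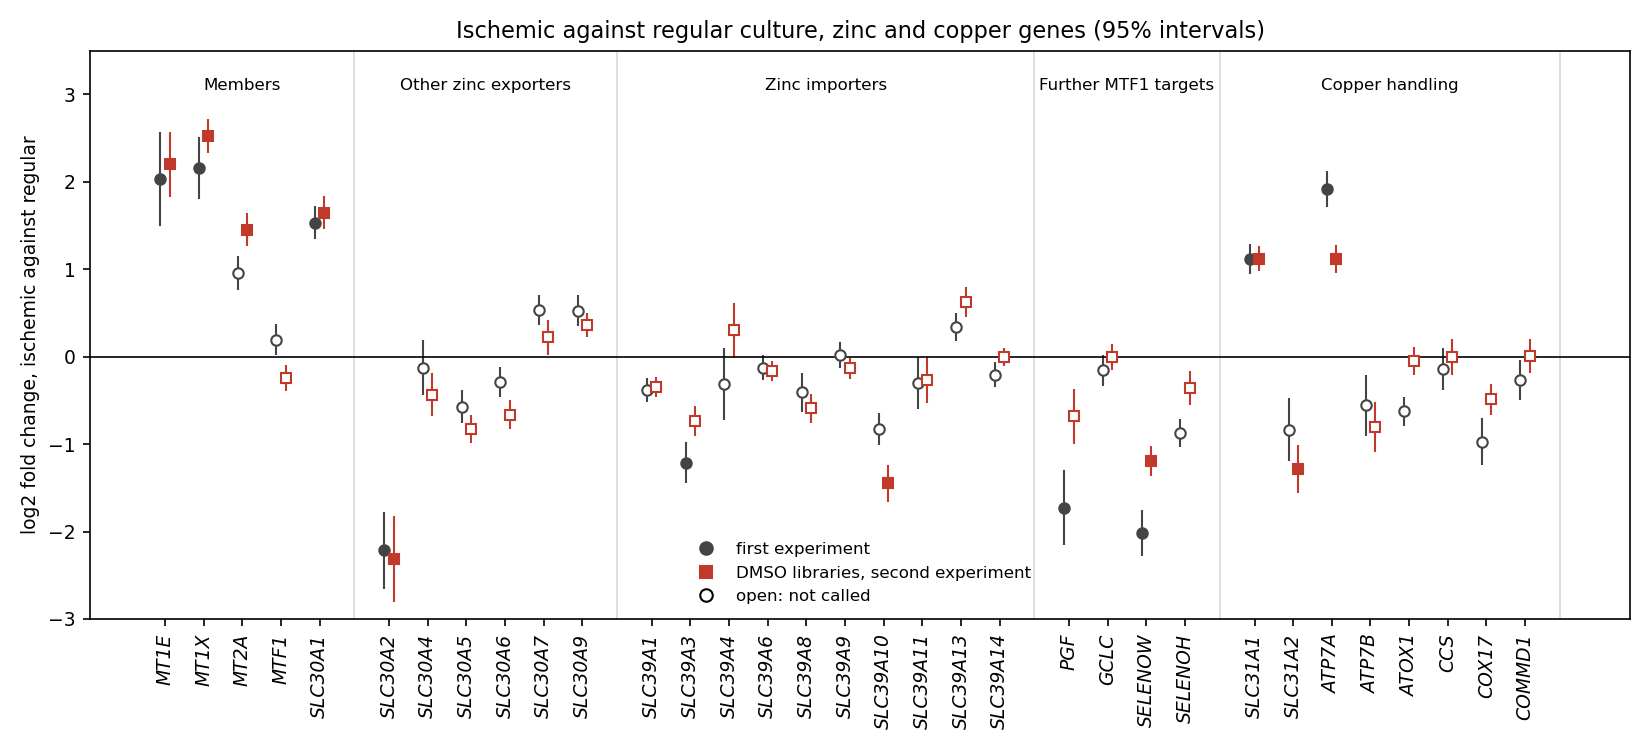
Log2 difference between ischemic and regular culture of the measured zinc and copper genes in experiments 1 and 2, with 95% intervals as bars and open symbols for genes not called. *SLC30A1* and the metallothioneins lie above 0 in both, *SLC30A2* lies lowest, and *ATP7A* and *SLC31A1* lie above 1.

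The genes whose pattern was most like that of each member were taken as the 3 with the highest Pearson r over the 12 libraries of experiment 2, among 10049 genes with a mean log2 CPM of at least 3. The 12 libraries share their 2 cultures, so the r is a description. By Spearman's rho, 0 of the 3 genes were the same for *MT1E*, *MT1X* and *SLC30A1* and 1 of 3 for *MT2A* and *MTF1*, so the names below depend on the measure. *MT1X* was most like *ANGPTL4* (r = 0.997), *SLAMF9* (0.997) and *LZTFL1* (0.996), and the gene ranked 100 had 0.989. *SLC30A1* was most like *IL1RAP* (0.995), *GFPT1* (0.993) and *ARHGEF2* (0.993), *MT1E* was most like *TRIT1* (0.990), *SLCO4A1-AS1* (0.988) and *BEX2* (0.987), and *MT2A* was most like *ERP29* (0.991), *KAT5* (0.986) and *DYRK4* (0.986). *MTF1* had lower values, led by *ADAR* (0.950), *ANKRD17* (0.921) and *DHX57* (0.915). For these members the gene ranked 100 had 0.980 (*SLC30A1*), 0.974 (*MT1E*), 0.9655 (*MT2A*) and 0.826 (*MTF1*). Among the members, *MT1E* and *MT1X* had r = 0.98, each had about 0.95 with *MT2A*, *SLC30A1* had 0.878 to 0.935 with the metallothioneins, and *MTF1* had −0.791 to −0.683 with the other members.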

How the data were processed

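Libraries were made from LN229 RNA with a kit that does not mark strand and sequenced in pairs. The authors aligned reads to GRCh38 with HISAT2 in Galaxy and normalized counts with edgeR; the counting program, annotation and versions are not given in the sources used here. The deposited values are log2 normalized CPM, used as deposited. Reads per library (20122017 to 37562668) were recovered from the steps of the values, and limits by reads cover counting error only.

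Differences came from limma 3.58.1 (R 4.3.3) with a variance trend, over all genes of each table (13559 and 14024), two-sided, with Benjamini-Hochberg adjustment. The 12 libraries of experiment 2 shared 1 fit. Calls needed an adjusted p under 0.05 and a fold of 2 (ischemia), 1.5 (inhibitors) or any (interactions). In data simulated for the ischemia comparisons, 98% of 100 genes changed by 1 (log2) had an adjusted p under 0.05 and the right sign, with no fold threshold applied. The simulated spread was fixed and not estimated from these libraries, and only genes above a minimum of expected reads were changed. The share is therefore not the power for the members, and the inhibitor and interaction tests were not simulated. The members, lists and tests were chosen with earlier results of these data known. All 8 members are named, list genes if called (up to 4 per list), and the 3 genes most alike. Positions and promoters came from RefSeq, transcripts from GENCODE. Alternatives were other folds, filters, scalings and fits, and each library left out; voom was added after seeing the data. One cell type marker of the lists is not reported here.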

Additional observations from a re-analysis of the deposited data

Results flagged for a closer look

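For 4 results the effect of an inhibitor differed between ischemic and regular culture by the test of the interaction (limma, adjusted over all genes), given as the effect in ischemic less that in regular culture. With MK25, *MT2A* had an interaction of −0.80 (adjusted p = 0.000263) and *SLC30A1* of −0.62 (adjusted p = 0.00164), and both stayed called in all 15 alternative fits (scalings, filters, models and libraries left out). With VX745, *MT2A* had −0.51 (adjusted p = 0.0158), and the call was lost in 5 of 15 alternative fits. With VX745, *MT1X* had −0.46 (adjusted p = 0.0287), and the call was lost in 8 of 15. A minimum fold of 2, set on top of the same fit, would leave 0 of the 4 called. Ischemic and regular DMSO libraries enter both inhibitors' interactions, so the 4 results are not independent.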

How the results depend on the processing

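Of the values of single members under an alternative, 447 kept their direction and side of the threshold, 18 lost a call, 5 gained one and 5 changed direction. The count of members called moved as follows. At a fold of 2, MK25 called 0 in ischemic and 0 in regular culture, and both interactions called 0. At any fold, ischemia in experiment 1 called 5, VX745 in ischemic culture 3 and MK25 in regular culture 3. The share of all genes called by an adjusted p at any fold was not counted, so these counts have no background. Under quantile normalization MK25 in regular culture called 2 and the VX745 interaction 1. Without the variance trend these called 0 and 0, and with voom 0 and 1. With only the groups compared, MK25 in regular culture called 0. Leaving out 1 library gave 3 to 4 for experiment 1, 0 to 2 for MK25 in regular culture and 0 to 2 for the VX745 interaction.

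In ischemic culture with VX745, *MTF1* turned to −0.0048 with median centring and to −0.0366 without ischemic DMSO replicate 1 (range −0.0366 to 0.0616 leaving out 1 library), and *MT1E* turned to −0.0609 under quantile normalization and to −0.18 without ischemic VX745 replicate 2 (range −0.18 to 0.25). *MT2A* with MK25 turned to 0.0277 under quantile normalization. None of these was called, and their cause was not tested.

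Replicate numbers were not taken as pairing: same-numbered libraries had correlations of deviations of −0.266 to 0.325 over 15 pairs of groups in experiment 2, of which 4 were over 0.1, and 0.271 in experiment 1. With the replicate block the counts were 3, 4, 0, 1, 0, 1, 2 and 2, as without it. With 2 libraries per group, the spread of each group rests on the pooled estimate.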
